A study of Homo sapiens with 12 samples.

Results

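This report describes the heat shock proteins of the cytosol, the chaperonin that folds actin and tubulin, and their mitochondrial counterparts in HK-2 cells, an immortalised line of human kidney proximal tubule cells. A list of 36 genes was looked up on the arrays: HSP90 with its cochaperones, the HSP70 and HSP110 proteins, J proteins with BAG3, small heat shock proteins with the transcription factor HSF1, subunits of the CCT chaperonin and chaperones of mitochondria. A gene counted as measured through probe sets annotated with exactly 1 symbol, and the brightest of them on average over the 12 arrays stood for it. By that rule 33 of the 36 genes were measured, out of 19775 genes on the array with such a probe set. All 33 were among the 10050 genes whose values reached 5 log2 units on at least 3 arrays and were tested. AHSA1 had no probe set under that symbol, and those of HSPA8 and TCP1 are annotated with small nucleolar RNAs as well, so these 3 genes are not analysed here. The heat-inducible HSPA1A and HSPA1B, which are not on the list, share their probe sets with each other and are not analysed here. Although most of the 33 act in the cytosol, HSPA9, HSPD1, HSPE1, TRAP1 and DNAJA3 are mitochondrial and HSPA13 belongs to the endoplasmic reticulum.

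The 4 groups, with 3 biological replicates each, were HK-2 cells exposed to a compound labelled Ra for 12 h, their controls at 12 h, cells exposed to Ra for 48 h, and their controls at 48 h. Controls received the vehicle. The sources used here do not give the identity or dose of Ra. All cells were of this single line, grown in a medium that contained hydrocortisone, insulin and EGF, and the series looked for expression signatures of kidney toxicity.

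Chaperones of the HSP70 class bind unfolded stretches of a protein under the control of J proteins and nucleotide exchange factors, and pass some clients on to HSP90 through adaptor proteins. HSP90 then holds clients such as steroid receptors and kinases with the help of its cochaperones, while the ring-shaped CCT complex encloses actin, tubulin and other proteins until they fold. When unfolded protein accumulates in the cytosol, HSF1 is released from chaperones and binds heat shock elements in the promoters of many of these genes. In kidney tubules this heat shock response is known from ischaemia and from toxic exposure.

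Values are GCRMA log2 expression values of Affymetrix 3′ arrays, so a log2 difference of 1 is a 2-fold change. A probe set's level is compared only with itself on other arrays, and the number of arrays limits the precision. The 12 h arrays were close to each other, with a median SD between replicates of 0.08 log2 units over the 33 chaperone genes with Ra and 0.09 in controls. At 48 h that SD was 0.38 with Ra and 0.13 in controls. The array of Ra 48 h replicate 2 stood apart: its upper quartile over all probe sets was 6.30 log2 units, against 7.01 to 7.21 on the other 11 arrays, and it gave the lowest of 12 values for 29 of the 33 genes. Of 17 proximal tubule and epithelial markers, 9 passed the filter. Among them were KRT8, KRT18, EPCAM, PAX8 and VIM, while the transport proteins LRP2, CUBN, AQP1, SLC5A2 and SLC34A1, which define the proximal tubule in the kidney, stayed below it. Of 15 markers of other cells, 2 passed (COL1A1 and DCN).

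Because HSF1 acts through promoters, the RefSeq promoters of the listed genes (build GRCh38.p14, 250 bases before to 50 after each start) were searched for a heat shock element of 3 blocks. The motif was GAA, TTC and GAA with any 2 bases (NN) between the blocks or, for the other strand, TTC, GAA and TTC spaced in the same way, and overlapping matches were counted. The table held promoters for 33 of the 36 listed genes, 47 promoters in all, and 7 of the 47, each of a different gene, held a match, against 0.49% of all 35116 promoters in the table. The genes with a match were HSP90AA1, HSP90AB1, CHORDC1, HSPA8, DNAJA1, DNAJB6 and HSPD1. The stretches around the matches are shown for 5 measured genes, on the strand of the gene, with the matching bases in capitals, since these genes carry several of the differences described further on.
HSP90AA1, chr14:102087100-102087152, minus strand: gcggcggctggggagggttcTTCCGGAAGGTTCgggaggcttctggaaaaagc
HSP90AB1, chr6:44247758-44247863, plus strand: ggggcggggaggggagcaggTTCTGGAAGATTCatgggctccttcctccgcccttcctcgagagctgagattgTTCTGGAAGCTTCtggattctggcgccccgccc
CHORDC1, chr11:90223067-90223129, minus strand: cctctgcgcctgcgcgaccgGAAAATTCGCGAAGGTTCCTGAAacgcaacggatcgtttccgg
DNAJB6, chr7:157336853-157336905, plus strand: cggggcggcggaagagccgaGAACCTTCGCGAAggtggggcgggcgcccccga
HSPD1, chr2:197500048-197500090, minus strand: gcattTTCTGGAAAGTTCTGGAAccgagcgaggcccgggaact
HSP90AB1 held 2 separate matches, CHORDC1 3 that overlap and HSPD1 2 that overlap. A match describes the letters of the window and does not by itself show that HSF1 binds there.

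The first comparison asked which of these genes differed between cells exposed to Ra for 12 h and their controls. At 12 h 15 of the 33 chaperone genes fell with Ra, HSPA13 rose, and 17 did not pass limma's test at an adjusted p of 0.05. Over all 10050 genes 13.6% passed, 6.25% lower and 7.34% higher. Before adjustment 23 of the 33 had a p under 0.05, against 30.8% of all genes. The genes that fell were 5 of the 6 measured CCT subunits, 4 of 8 genes of the HSP90 group, 3 of 5 mitochondrial chaperones, 2 of 5 HSP70 and HSP110 genes and 1 of 6 in the group of J proteins with BAG3. None of HSPB1, HSPB8 and HSF1 passed. The falls were small, between 1.11-fold for HSPD1 and 1.56-fold for FKBP4. The median log2 difference of the 33 genes was -0.25, against 0.01 over all genes tested, and 27 of the 33 means were lower, against 48% of all genes. All 3 Ra arrays lay below all 3 control arrays for 20 genes and above them for 2 (HSPA13 and DNAJA2), against 16.9% and 18.4% of all genes, or 35.3% in all.

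**Figure D1:**
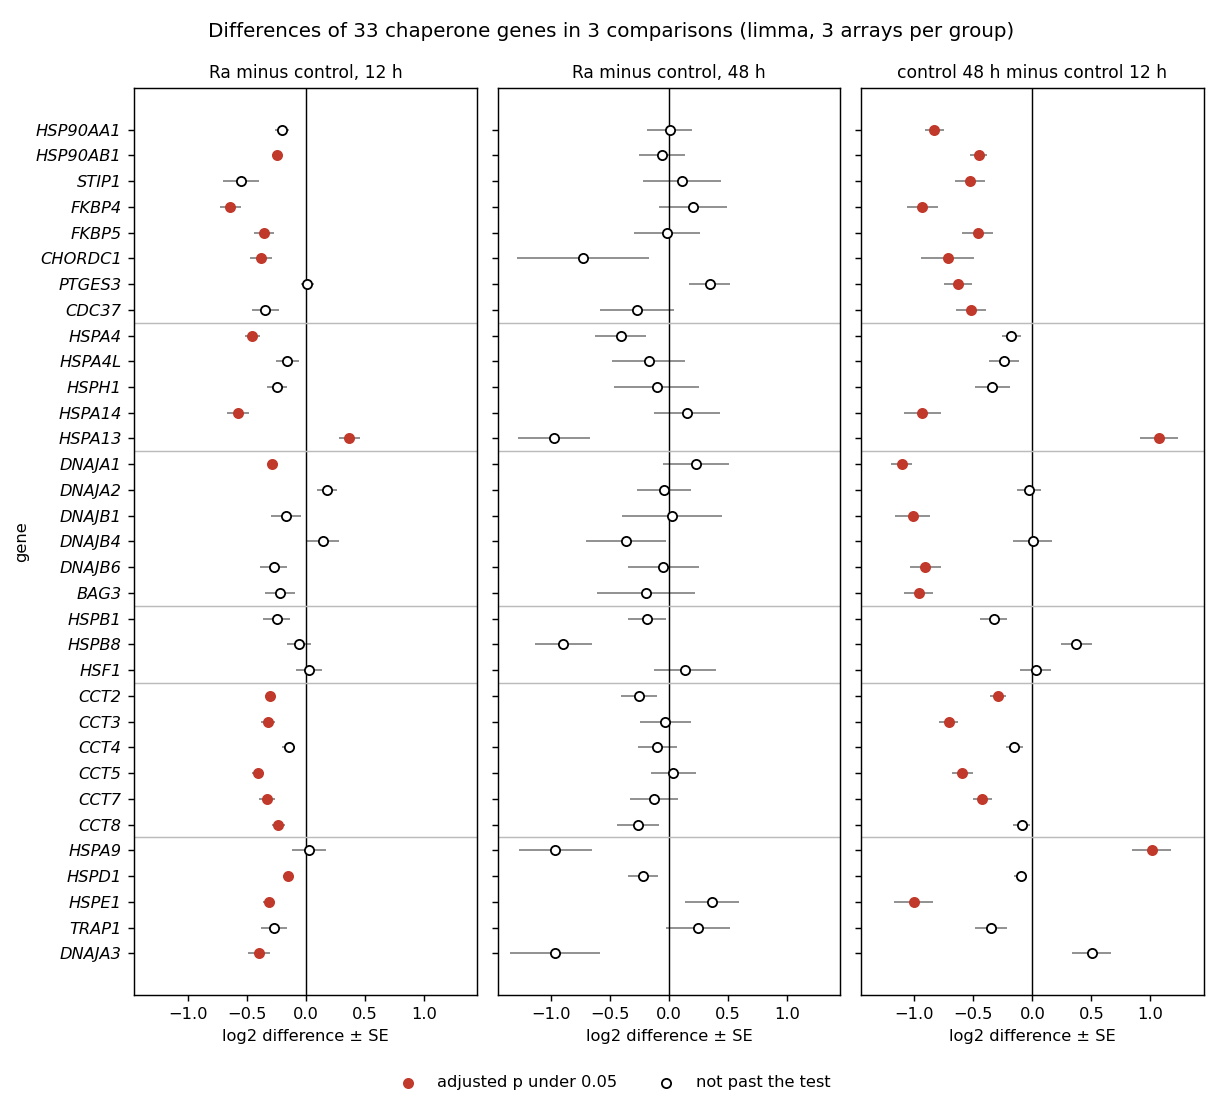
Log2 differences ± SE of the 33 chaperone genes (rows, grouped by role) for Ra minus control at 12 h, Ra minus control at 48 h and control 48 h minus control 12 h, 3 arrays per group, with filled points for genes past limma's test. At 12 h 16 points are filled, at 48 h 0 with much longer error bars, and between the control groups 20.

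Within the HSP90 group the difference was widest for FKBP4, the immunophilin FKBP52 that joins HSP90 in steroid receptor complexes. FKBP4 read 9.59, 9.60 and 9.65 log2 units on the Ra arrays at 12 h, against 10.11, 10.23 and 10.41 on the control arrays. The groups did not overlap, and the gap between them was wider than the range within either. The log2 difference was -0.64 ± 0.09 (SE, limma, adjusted p = 0.0106), a 1.56-fold lower level. FKBP5, the related immunophilin FKBP51 and a known glucocorticoid target, read 10.33, 10.60 and 10.40 with Ra, against 10.76, 10.84 and 10.79 in controls. It fell by 0.35 ± 0.09 (adjusted p = 0.0375), with its 3 Ra values spread more widely than its controls. CHORDC1, a zinc-binding partner of HSP90, read 10.85, 10.79 and 10.55 with Ra, against 11.06, 11.07 and 11.20 in controls. Its fall was 0.38 ± 0.09 (adjusted p = 0.0367), again with no overlap.

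The 2 cytosolic HSP90 genes themselves had smaller differences. HSP90AB1, the constitutive form, read 13.73, 13.70 and 13.79 with Ra at 12 h, against 13.99, 14.00 and 13.97 in controls. Its values were tight in both groups and it fell by 0.24 ± 0.04 (adjusted p = 0.0167). HSP90AA1, the inducible form, read 14.94, 14.82 and 15.00 with Ra, against 15.17, 15.04 and 15.15 in controls. The groups did not overlap, but its log2 difference of -0.20 ± 0.06 did not pass (adjusted p = 0.0559). The further probe sets of HSP90AA1 gave smaller log2 differences of -0.04, -0.15 and -0.01. STIP1, the adaptor between HSP70 and HSP90, read 9.47, 9.28 and 9.85 with Ra, against 10.04, 9.95 and 10.25 in controls. Its difference of -0.54 ± 0.15 was larger than most, yet with the wide Ra values it stayed at adjusted p = 0.0539. CDC37, which brings kinases to HSP90, had a log2 difference of -0.34 ± 0.12 with overlapping groups (adjusted p = 0.087). PTGES3, the cochaperone p23, had one of 0.01 ± 0.06.

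Among the HSP70 and HSP110 genes, HSPA4 and HSPA14 fell and HSPA13 rose. HSPA4, an HSP110-type nucleotide exchange factor, read 12.18, 12.27 and 12.28 with Ra at 12 h, against 12.75, 12.72 and 12.62 in controls. The groups were clearly apart, with a log2 difference of -0.45 ± 0.06 (adjusted p = 0.00844). HSPA14, an HSP70 protein that works at the ribosome, read 9.25, 9.20 and 9.21 with Ra, against 9.95, 9.76 and 9.67 in controls. It fell by 0.58 ± 0.09 (adjusted p = 0.0127), while its other probe sets, which read lower, gave log2 differences of only -0.06 and -0.22. HSPA13, an HSP70 protein of microsomes, read 10.38, 10.35 and 10.39 with Ra, against 10.05, 9.86 and 10.11 in controls. All 3 Ra values were above all controls, and it rose by 0.37 ± 0.09 (adjusted p = 0.0322). The HSP110 genes HSPH1 and HSPA4L had log2 differences of -0.24 ± 0.08 and -0.15 ± 0.10, and neither passed (adjusted p = 0.095 and 0.33).

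The CCT subunits behaved most evenly, and all 6 measured ones were lower on every Ra array at 12 h than on every control array. CCT5 read 13.20, 13.15 and 13.27 with Ra, against 13.58, 13.59 and 13.66 in controls. That gap was wider than the range in either group, with a log2 difference of -0.40 ± 0.05 (adjusted p = 0.00747), the smallest adjusted p of the 33 genes. CCT2 read 13.72, 13.74 and 13.74 with Ra, against 14.06, 14.04 and 14.00 in controls. It fell by 0.30 ± 0.04 (adjusted p = 0.00903), CCT3 by 0.32 ± 0.06, CCT7 by 0.33 ± 0.07 and CCT8 by 0.23 ± 0.06. CCT4, at -0.15 ± 0.06, was the subunit that did not pass (adjusted p = 0.119). The other probe set of CCT4, which read lower, had the opposite sign, with a log2 difference of 0.08. Of 12 measured tubulin and actin genes, whose products CCT folds, TUBB4B fell by 0.23 ± 0.06 (adjusted p = 0.0452), the others did not pass, and the median was -0.11. Prefoldin hands such clients to CCT, and of its 5 measured subunits PFDN2 fell by 0.44 ± 0.09 (adjusted p = 0.025).

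Mitochondrial chaperones showed falls in 3 of 5 genes at 12 h. HSPE1, the small co-chaperonin of mitochondria, read 13.46, 13.49 and 13.50 with Ra, against 13.72, 13.83 and 13.82 in controls. It fell by 0.31 ± 0.05 (adjusted p = 0.0114) with no overlap. Its partner chaperonin HSPD1 read 14.55, 14.53 and 14.57 with Ra, against 14.74, 14.69 and 14.67 in controls. This fall of 0.15 ± 0.04 was the smallest that passed (adjusted p = 0.0437). DNAJA3, the mitochondrial J protein, read 9.13, 8.98 and 9.23 with Ra, against 9.58, 9.43 and 9.52 in controls. It fell by 0.40 ± 0.09 (adjusted p = 0.0336). TRAP1, the mitochondrial HSP90, had a log2 difference of -0.27 ± 0.11 with no overlap and did not pass (adjusted p = 0.132). The mitochondrial HSP70 gene HSPA9 was spread over 12.09, 11.81 and 11.47 with Ra, against 11.64, 11.80 and 11.85 in controls, and these groups overlapped.

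Of the J proteins and BAG3, DNAJA1 alone passed at 12 h. DNAJA1, a J protein of cytosolic HSP70, read 13.03, 13.07 and 13.04 with Ra, against 13.36, 13.32 and 13.32 in controls. Both groups were very tight, and it fell by 0.28 ± 0.05 (adjusted p = 0.0123). The classic heat-inducible genes of this group had differences that did not pass. DNAJB1 had a log2 difference of -0.17 ± 0.13, BAG3, which couples HSP70 to autophagy, -0.22 ± 0.13, and DNAJB6, which restrains aggregation, -0.27 ± 0.12. HSPB1, the small heat shock protein HSP27, had one of -0.25 ± 0.11, and HSPB8, the partner of BAG3, -0.06 ± 0.10. HSF1 itself read 6.63, 6.63 and 6.63 with Ra, against 6.62, 6.47 and 6.71 in controls. The Ra values were tight and lay within the range of the controls.

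Of the 6 measured genes with a heat shock element, HSP90AB1, CHORDC1, DNAJA1 and HSPD1 fell at 12 h, and all 6 means were lower, with a median log2 difference of -0.26. Of the 24 measured genes with a promoter in the table and no match, 9 fell and 1 rose, with a median of -0.24. FKBP4, HSPA14 and HSF1 had no promoter entry.

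Lists of neighbouring genes gave the following counts at 12 h. Of 53 other chaperone and related genes, which include the prefoldin subunits above, 7 fell and 2 rose. That is 17%, against 13.6% of all genes, and their median log2 difference was -0.09. GRPEL1, the nucleotide exchange factor of mitochondrial HSP70, fell by 0.58 ± 0.09 (adjusted p = 0.0117), the J protein DNAJC8 by 0.49 ± 0.07, NUDC by 0.45 ± 0.09 and CLPX by 0.45 ± 0.09. Of 30 proteasome subunits 5 fell and 0 rose, or 16.7%, with a median of -0.15. Among those that fell was PSME3, a proteasome activator, by 0.51 ± 0.10 (adjusted p = 0.0205). The 21 chaperones and folding enzymes of the endoplasmic reticulum went the other way, with 5 genes risen and 0 fallen (23.8%) and a median of 0.26. Among those that rose were DNAJB9 (0.97 ± 0.14, adjusted p = 0.0108) and PDIA4 (0.55 ± 0.09, adjusted p = 0.0139). Of 10 glucocorticoid receptor targets GLUL rose, FKBP5 and SGK1 fell, and the median was 0.00. Differences between these lists were not tested.

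How many genes pass at 12 h depends on the spread used. With the replicate number as a block, in which the 12 h arrays may be paired, 22 of the 33 genes passed, 21 lower, among them HSP90AA1 (adjusted p = 0.0115), STIP1 (0.0057), CDC37, HSPH1, HSPB1 and TRAP1, against 23.4% of all genes. With 1 spread over all 12 arrays, which takes in the wider spread at 48 h, limma called 0 of the 33 (6 at an unadjusted p under 0.05) and 0.0299% of all genes. When 1 array was left out, the count was 5 without Ra replicate 1, against 3.3% of all genes, 7 without Ra replicate 2, against 2.92%, and 15 without Ra replicate 3, against 13.8%. It was 7 when replicate 1 of the controls was left out, against 4.1% of all genes, 8 for replicate 2, against 5.24%, and 9 for replicate 3, against 5.81%. FKBP4, HSPA4, CCT2 and CCT5 passed in all 6 of these fits, and the median of the 33 log2 differences stayed between -0.29 and -0.23.

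**Figure D2:**
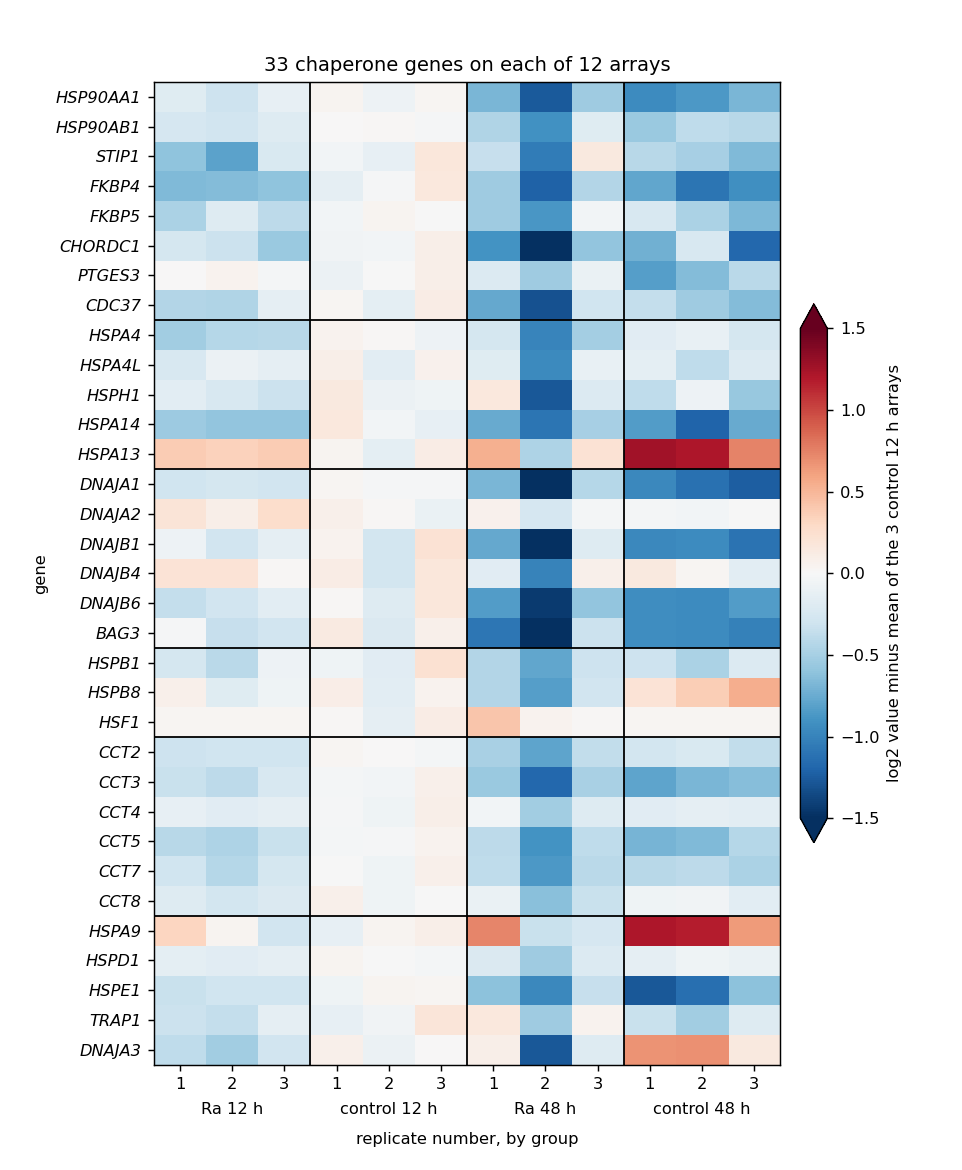
Log2 value of each of the 33 chaperone genes (rows, grouped by role) on each of the 12 arrays (columns), minus the mean of the 3 control arrays at 12 h, blue for lower and red for higher. Ra 12 h arrays lie wholly below 12 h controls for 20 genes and above for 2, against 16.9% and 18.4% of all genes. The 48 h control arrays do so for 23 and 4, against 26% and 24.8%. Ra 48 h replicate 2 is the darkest column, and HSPA13, HSPA9 and DNAJA3 are red in 48 h controls.

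The second comparison set cells exposed to Ra for 48 h against their controls. Of the 33 chaperone genes 0 passed limma's test, as did 0% of all genes tested, and 4 of the 33 had an unadjusted p under 0.05, against 17.4% of all genes. Those were HSPB8, HSPA13, HSPA9 and DNAJA3, whose means were lower with Ra by 0.89 to 0.98 log2 units. All 3 Ra arrays lay below all 3 controls for 5 genes (HSPA4, HSPA13, HSPB8, HSPD1 and DNAJA3) and above them for 0, against 18.6% and 5.37% of all genes, or 24% in all. The median log2 difference of the 33 genes was -0.10, against -0.20 over all genes, and 22 of the 33 means were lower, against 67.1% of all genes. With the replicate number as a block 0 of the 33 passed, against 1.3% of all genes.

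HSPB8 read 10.04, 9.66 and 10.20 with Ra at 48 h, against 10.70, 10.85 and 11.03 in controls. The groups were apart, with a log2 difference of -0.89 ± 0.24 (SE, adjusted p = 0.193). HSPA13 read 10.54, 9.54 and 10.23 with Ra, against 11.27, 11.22 and 10.75 in controls. Its difference of -0.98 ± 0.31 (adjusted p = 0.219) had no overlap either. DNAJA3 read 9.59, 8.24 and 9.31 with Ra, against 10.18, 10.20 and 9.66 in controls, a difference of -0.96 ± 0.38 (adjusted p = 0.263) in which the highest Ra value came close to the lowest control. HSPA9 read 12.49, 11.43 and 11.51 with Ra, against 12.98, 12.94 and 12.40 in controls. Ra replicate 1 overlapped with the controls here, and the difference was -0.96 ± 0.31 (adjusted p = 0.224). With 1 spread over all 12 arrays these 4 genes passed (adjusted p = 0.0129 for HSPB8, 0.0236 for HSPA13, 0.0363 for HSPA9 and 0.0488 for DNAJA3), as did 12.6% of all genes.

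The HSP90 group and CCT had mean differences near 0 or of mixed sign at 48 h. Over the 8 genes of the HSP90 group the median log2 difference was -0.01, and over the 6 CCT subunits it was -0.11. FKBP4 read 9.71, 9.03 and 9.81 with Ra at 48 h, against 9.47, 9.15 and 9.34 in controls. Its difference was 0.20 ± 0.29, with the array that stands apart giving the lowest value. CCT5 read 13.22, 12.71 and 13.23 with Ra, against 12.91, 12.95 and 13.19 in controls, a difference of 0.04 ± 0.19. CHORDC1 spread most, over 10.22, 8.27 and 10.52 with Ra, against 10.39, 10.87 and 9.94 in controls, and its difference of -0.73 ± 0.56 is not distinguishable from 0.

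When Ra 48 h replicate 2 was left out, the 33 log2 differences at 48 h had a median of 0.14, against 0.01 over all genes, and the positive differences of several genes were larger. They reached 0.55 ± 0.14 for DNAJA1 (adjusted p = 0.168), 0.53 ± 0.21 for DNAJB1, 0.53 ± 0.22 for HSPE1, 0.47 ± 0.14 for PTGES3 (adjusted p = 0.182), 0.46 ± 0.17 for TRAP1 and 0.44 ± 0.17 for FKBP4. HSPB8 remained lower, at -0.74 ± 0.16, as did HSPA9 at -0.77 ± 0.33, HSPA13 at -0.70 ± 0.22 and DNAJA3 at -0.56 ± 0.23. None of the 33 passed limma's test in that fit, as did 0% of all genes. The unadjusted p was under 0.05 for DNAJA1, DNAJB1, PTGES3, TRAP1, FKBP4, HSPB8 and HSPA13, and for 21.4% of all genes. The sign of the median also turned with a rescaling of the arrays, to 0.05 after quantile normalization and to 0.15 after centring each array. The median over all genes moved as well, from -0.20 to 0.01 and to 0.05. HSPA13 and HSPB8 passed the test after quantile normalization, against 6.38% of all genes, and HSPA13 after centring, against 7.1%, so these counts are no more than the share over all genes.

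**Figure D3:**
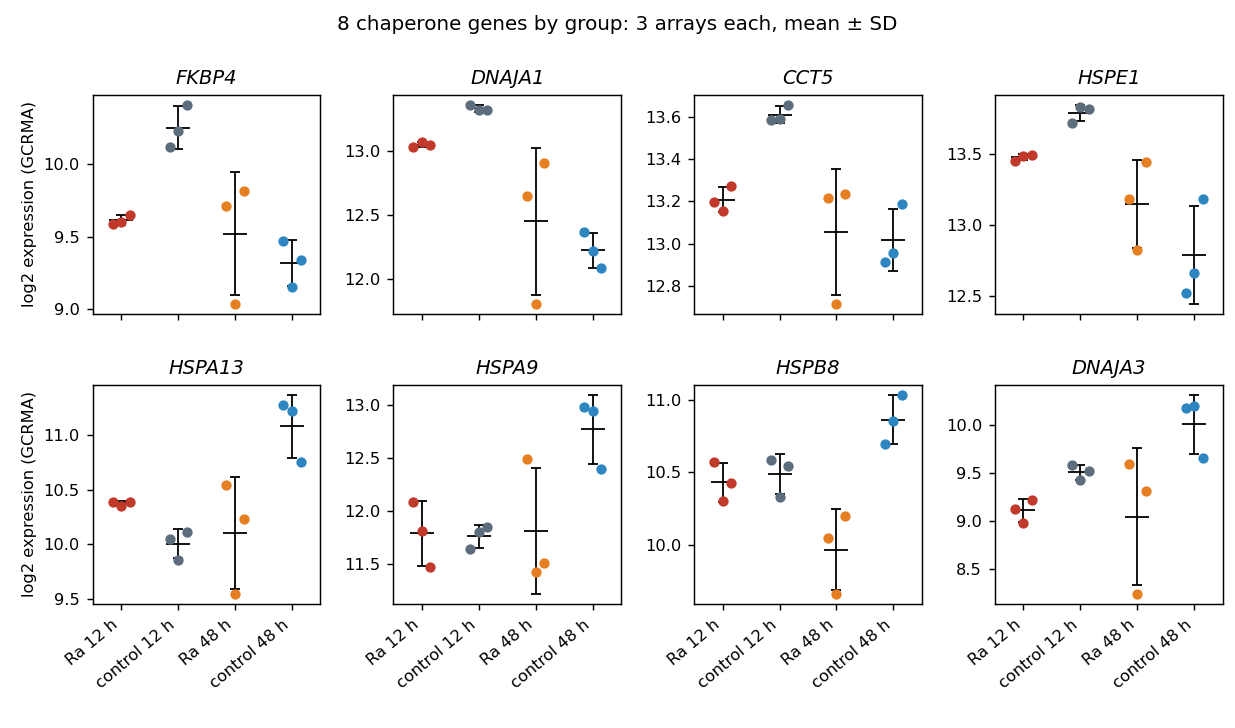
Log2 expression (GCRMA) of 8 chaperone genes on the 3 arrays of each group, with the mean and SD of the group as lines. FKBP4, DNAJA1, CCT5 and HSPE1 were lower at 12 h with Ra and lower in controls at 48 h than at 12 h, while HSPA13, HSPA9, HSPB8 and DNAJA3 had their highest group mean in controls at 48 h.

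Whether Ra acted differently at the 2 times was tested as the effect at 48 h minus the effect at 12 h. None of the 33 genes passed limma's test over the 12 arrays, nor did more than 0.0199% of all genes, and 7 of the 33 had an unadjusted p under 0.05, against 19.2% of all genes. HSPA13 had the most negative value, -1.34 ± 0.33 (adjusted p = 0.103), with a log2 difference of -0.98 at 48 h and of 0.37 at 12 h. HSPA9 (-0.99 ± 0.37) and HSPB8 (-0.84 ± 0.24) were also negative. FKBP4 (0.84 ± 0.29), HSPA14 (0.73 ± 0.27), HSPE1 (0.67 ± 0.24) and CCT5 (0.44 ± 0.19) were positive. The value was negative for 10 of the 33 genes, against 65.6% of all genes. With the replicate block 0 of the 33 passed, against 0.358% of all genes. Without Ra 48 h replicate 2 the test called 6 genes, against 3.18% of all genes: FKBP4 (1.08 ± 0.17, adjusted p = 0.0349), DNAJA1 (0.83 ± 0.13, adjusted p = 0.0349), HSPA14 (0.88 ± 0.21), CCT5 (0.61 ± 0.12), CCT3 (0.51 ± 0.11) and, with the opposite sign, HSPA13 (-1.07 ± 0.22, adjusted p = 0.0394). Leaving out Ra 48 h replicate 1 instead, it called HSPA13 and HSPA9, against 10.4% of all genes. Leaving out control 48 h replicate 3, it called HSPA13 and HSPE1, against 5.69% of all genes. A count of 2 of 33 is below the first of these shares and close to the second.

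The controls also changed between the times, and the same control arrays at each time serve the comparisons with Ra. In controls at 48 h, set against controls at 12 h, 18 of the 33 chaperone genes fell, HSPA13 and HSPA9 rose, and 13 did not pass. Over all genes 33.2% passed, 16.6% lower and 16.6% higher. Before adjustment 24 of the 33 had a p under 0.05, against 45.8% of all genes. All 8 genes of the HSP90 group fell, with log2 differences between -0.45 and -0.93, as did 4 of 6 in the group of J proteins with BAG3, 4 of 6 CCT subunits, HSPE1 and HSPA14. The median log2 difference of the 33 genes was -0.42, against 0.01 over all genes, and 27 of the 33 means were lower, against 49.4% of all genes. The arrays of the 2 times did not overlap for 23 genes that were lower at 48 h and 4 that were higher, against 26% and 24.8% of all genes, or 50.8% in all. Time in culture, plate and harvest cannot be told apart in this comparison.

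DNAJA1 moved most, with 12.37, 12.22 and 12.09 log2 units in controls at 48 h, against 13.36, 13.32 and 13.32 in controls at 12 h. It fell by 1.11 ± 0.09 (SE, adjusted p = 0.00168), a 2.15-fold lower level. DNAJB1 read 9.67, 9.70 and 9.53 at 48 h, against 10.70, 10.37 and 10.87 at 12 h. This J protein, among the genes most induced by heat, fell by 1.01 ± 0.15 (adjusted p = 0.00508). BAG3 read 9.63, 9.62 and 9.54 at 48 h, against 10.70, 10.34 and 10.63 at 12 h, and fell by 0.96 ± 0.13 (adjusted p = 0.00408). DNAJB6 fell by 0.90 ± 0.13, so that these 4 genes lay well apart between the times, while DNAJA2 (-0.03 ± 0.10) and DNAJB4 (0.00 ± 0.16) did not pass.

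In the HSP90 group HSP90AA1 read 14.18, 14.26 and 14.44 in controls at 48 h, against 15.17, 15.04 and 15.15 at 12 h. It fell by 0.83 ± 0.08 (adjusted p = 0.00225), and HSP90AB1 by 0.45 ± 0.07 (adjusted p = 0.00553). FKBP4 read 9.47, 9.15 and 9.34 at 48 h, against 10.11, 10.23 and 10.41 at 12 h, a fall of 0.93 ± 0.13 (adjusted p = 0.00479). PTGES3, which hardly differed between Ra and control at 12 h, read 13.23, 13.41 and 13.66 in controls at 48 h, against 13.97, 14.06 and 14.15 at 12 h. It fell by 0.63 ± 0.11 (adjusted p = 0.00908), with its 48 h values apart from its 12 h values. STIP1 fell by 0.53 ± 0.13, CDC37 by 0.52 ± 0.13, FKBP5 by 0.46 ± 0.13 and CHORDC1 by 0.71 ± 0.22 (adjusted p = 0.0465). Of these, CHORDC1 spread widest in 48 h controls, over 10.39, 10.87 and 9.94, against 11.06, 11.07 and 11.20 at 12 h.

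The 2 genes that rose in controls were both of the HSP70 family. HSPA13 read 11.27, 11.22 and 10.75 in controls at 48 h, against 10.05, 9.86 and 10.11 at 12 h. It rose by 1.07 ± 0.16 (adjusted p = 0.00557), a 2.10-fold higher level. HSPA9 read 12.98, 12.94 and 12.40 at 48 h, against 11.64, 11.80 and 11.85 at 12 h. It rose by 1.01 ± 0.17 (adjusted p = 0.00673), also with no overlap. DNAJA3, its J protein partner in mitochondria, was higher on all 3 arrays at 48 h but did not pass (0.50 ± 0.17, adjusted p = 0.0571), and neither did HSPB8 (0.37 ± 0.13, adjusted p = 0.0621).

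The mitochondrial chaperonin and its co-chaperonin, which lie head to head on chromosome 2, differed in size. HSPE1 read 12.52, 12.66 and 13.18 in controls at 48 h, against 13.72, 13.83 and 13.82 at 12 h. It fell by 1.00 ± 0.16 (adjusted p = 0.00681). HSPD1 read 14.57, 14.64 and 14.60 at 48 h, against 14.74, 14.69 and 14.67 at 12 h. Its arrays did not overlap, but the log2 difference of -0.10 ± 0.05 did not pass (adjusted p = 0.185), and the difference between the 2 genes was not tested.

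Of the CCT subunits CCT3 moved furthest between the control groups. It read 12.41, 12.52 and 12.56 in controls at 48 h, against 13.17, 13.16 and 13.28 at 12 h, and fell by 0.71 ± 0.08 (adjusted p = 0.0031). CCT5 fell by 0.59 ± 0.09, CCT7 by 0.42 ± 0.08 and CCT2 by 0.29 ± 0.06, while CCT4 (-0.15 ± 0.07) and CCT8 (-0.09 ± 0.07) did not pass. The tubulin and actin clients of CCT fell in 8 of 12 genes, with a median log2 difference of -0.86, led by TUBB6 (-1.57 ± 0.21, adjusted p = 0.00411). HSPA14 read 8.95, 8.60 and 9.04 in controls at 48 h, against 9.95, 9.76 and 9.67 at 12 h. It fell by 0.93 ± 0.15 (adjusted p = 0.00704), whereas its other probe sets gave -0.24 and -0.02. The HSP110 genes HSPA4 (-0.18 ± 0.08), HSPA4L (-0.24 ± 0.13) and HSPH1 (-0.34 ± 0.15) did not pass, nor did HSPB1 (-0.33 ± 0.12) or TRAP1 (-0.35 ± 0.14). HSF1 gave 0.03 ± 0.13.

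Of the 6 measured genes with a heat shock element, HSP90AA1, HSP90AB1, CHORDC1, DNAJA1 and DNAJB6 fell in controls at 48 h relative to 12 h, and HSPD1 did not pass. Their median log2 difference was -0.77, and for the 24 genes with a promoter in the table and no match, of which 11 fell and 2 rose, it was -0.33. DNAJB1, BAG3 and HSPE1 were among the genes with no match, which says only that these letters are not in the windows searched. The window of HSPE1 (chr2:197500129-197500428) did not reach the stretch shown for HSPD1, the gene that lies head to head with it.

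Among the neighbouring lists, 16 of 30 proteasome subunits fell in controls at 48 h relative to 12 h and 0 rose. That is 53.3%, against 33.2% of all genes, with a median log2 difference of -0.38. PSMC3, an ATPase of the regulatory particle, was one of them (-0.83 ± 0.10, adjusted p = 0.00358). Of the 53 other chaperone and related genes 11 rose and 10 fell, or 39.6%, with a median of 0.01. LONP1, a mitochondrial protease, rose by 1.28 ± 0.20 (adjusted p = 0.00568). The 21 genes of the endoplasmic reticulum all had higher means in controls at 48 h, with a median of 1.28. Of them 6 rose (28.6%), among them HSPA5, the HSP70 protein of that compartment (1.55 ± 0.33, adjusted p = 0.0142). At 48 h the same 21 genes all had lower means with Ra than in controls, with a median of -1.08, and 0 passed. The signs of HSPA13 in these comparisons were those of this list, but whether they are related was not tested.

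Between the control groups, leaving out replicate 1 of the 48 h controls gave 20 of the 33 genes, against 26.4% of all genes, replicate 2 gave 17, against 17.7%, and replicate 3 gave 23, against 45.6%. Of the 12 h controls, leaving out replicate 1 gave 15, against 15.5% of all genes, replicate 2 gave 17, against 15.5%, and replicate 3 gave 15, against 14.2%. The highest count came with the highest share over all genes. With 1 spread over all 12 arrays 13 of the 33 passed, against 19.5% of all genes. HSPA13 and HSPA9 rose and DNAJA1, DNAJB6, FKBP4, HSP90AA1 and HSPE1 fell in that fit too.

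In cells with Ra, those at 48 h against those at 12 h, 0 of the 33 genes passed limma's test, as did 0% of all genes, and 4 had an unadjusted p under 0.05, against 8.39% of all genes. The 4 were HSP90AA1, DNAJA1, DNAJB6 and BAG3. HSP90AA1 read 14.44, 13.86 and 14.59 with Ra at 48 h, against 14.94, 14.82 and 15.00 with Ra at 12 h. The arrays did not overlap, and the log2 difference was -0.62 ± 0.18 (adjusted p = 0.584). BAG3 read 9.47, 8.49 and 10.23 with Ra at 48 h, against 10.54, 10.21 and 10.27 at 12 h, a difference of -0.94 ± 0.40 with some overlap. Groups lay apart for 11 genes, all lower at 48 h, against 17% of all genes lower and 2.49% higher, or 19.5% in all. The 33 log2 differences had a median of -0.25, against -0.21 over all genes, and of -0.06 with Ra 48 h replicate 2 left out. Of the 33 means 29 were lower at 48 h, against 76.1% of all genes. With the replicate number as a block HSP90AA1 and CHORDC1 passed, against 2.34% of all genes.

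**Figure D4:**
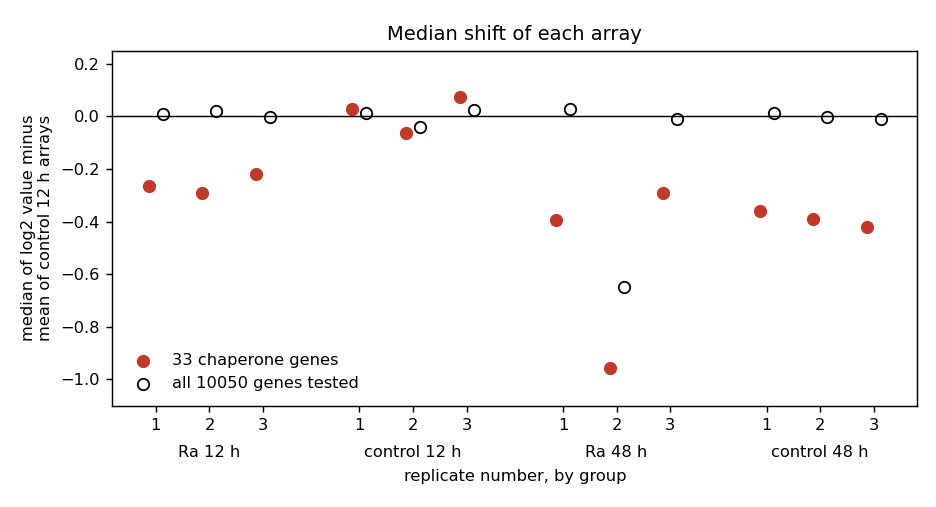
Median over the 33 chaperone genes (filled points) and over all 10050 genes tested (open points) of the log2 value minus the mean of the 12 h controls, for each of the 12 arrays. The filled points lie between -0.29 and -0.22 on the Ra 12 h arrays and between -0.42 and -0.36 in 48 h controls, where the open points are within 0.03 of 0, and Ra 48 h replicate 2 is low in both.

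Seen array by array, relative to the mean of the 12 h controls, the median of the 33 genes was -0.27, -0.29 and -0.22 log2 units on the Ra 12 h arrays, against 0.03, -0.06 and 0.07 on the 12 h controls themselves. It was -0.39, -0.96 and -0.29 on the Ra 48 h arrays, against -0.36, -0.39 and -0.42 on the 48 h controls. Over all genes tested the same medians stayed near 0 on every array but Ra 48 h replicate 2, where it was -0.65. By role, the median of the HSP90 group was -0.35, -0.31 and -0.21 on the Ra 12 h arrays, against -0.64, -0.52 and -0.67 on the 48 h controls. For CCT it was -0.30, -0.34 and -0.25 on the Ra 12 h arrays, against -0.35, -0.31 and -0.40 on the 48 h controls. For the J proteins with BAG3 it was -0.05, -0.28 and -0.15 on the Ra 12 h arrays, against -0.93, -0.94 and -0.93 on the 48 h controls. Both sets of arrays are measured here against the same 12 h controls, so these values are given side by side and were not tested.

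Where a gene had further probe sets past the filter, they mostly kept the sign. At 12 h 27 of 30 further probe sets, of 20 genes, had the sign of the one described, including all 17 of genes past the test. Between the control groups 27 of 30 did, including all 18 of genes past the test. At 48 h 20 of 30 did for Ra against control. For HSPA13 and HSPA9, the further probe sets gave log2 differences at 48 h of -1.0 for HSPA13 and of -1.26 and -1.14 for HSPA9. GAPDH and ACTB, which serve as reference genes, had small log2 differences between Ra and control. For GAPDH it was 0.05 ± 0.04 at 12 h and -0.04 ± 0.12 at 48 h, and for ACTB -0.07 ± 0.04 at 12 h and 0.07 ± 0.12 at 48 h.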

How the data were processed

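Total RNA of 12 HK-2 cultures, 3 per group, was hybridised to Affymetrix 3′ arrays. The deposited log2 values come from GCRMA, per the submitters' processing notes, a method that corrects background by probe sequence, normalizes the arrays and summarises probe sets. The sources used here do not name its version or the set of arrays normalized together. GCRMA shrinks dim signals, so values near background, such as those of HSF1, depend on its model.

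Probe sets were named through the platform annotation, and the Entrez numbers of all 33 measured genes matched the current RefSeq symbols. Probe sets with 1 symbol and at least 3 arrays at 5 log2 units or more were kept, and the brightest on average represented its gene, giving 10050 genes. The tests were limma's moderated linear models (limma 3.58.1 under R 4.3.3, intensity trend), with p-values adjusted by Benjamini-Hochberg across all 10050 genes and a threshold of 0.05. Each pairwise comparison used the 6 arrays of its own groups, because replicates spread much more in Ra 48 h than elsewhere, and the difference of effects used all 12. The code was tested on simulated data. No arrays held identical values (0 pairs).

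The members and all gene lists were chosen with earlier results of these data known. Every listed gene is accounted for. Of each other list, up to 4 genes past the test with the largest change are named, or up to 2 where none passed, with GAPDH and ACTB. Whether arrays of the same replicate number deviate together from their groups was checked by correlation. Between Ra and control the 3 correlations were 0.182, 0.421 and 0.344 at 12 h, all over 0.1, so the numbers may pair those samples, and 0.301, -0.219 and 0.097 at 48 h, which gives no sign of pairs. The labels do not say what a number shares. Alternatives were filters on dim probe sets, averaging all probe sets of a gene, omitting probe set types that can cross-hybridise, quantile normalization, centring, no intensity trend, robust moderation, 1 spread over 12 arrays, a variance for each group, the replicate block, and leaving out each array. Promoters came from RefSeq (GRCh38.p14). Plots were drawn with matplotlib 3.10.9.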

Additional observations from a re-analysis of the deposited data

How the results depend on the processing

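For Ra against control at 12 h, the count of 16 of 33 genes past the test became 8 with no filter (2.56% of all genes). It was 9 with no intensity trend (11%) and 0 with 1 spread over all 12 arrays (0.0299%). When 1 array was left out it ranged from 5 to 15, with 2.92% to 13.8% of all genes. Without probe set types that can cross-hybridise it was 8 (12.5%), but out of fewer than 33 genes. HSPA4 and HSPD1 stayed in through another, dimmer probe set, each with a log2 difference of -0.43, and did not pass there. Genes whose probe sets past the filter are all of those types, such as FKBP4, CCT2 and HSPE1, drop out of that setting. Under the other alternatives the count was 16 to 22 (13.1% to 23.4% of all genes), 22 with the replicate block. That block raised the count over all genes from 1366 to 2351. The median log2 difference stayed between -0.29 and -0.22 throughout. At 48 h the count of 0 became 1 with a filter at 7 log2 units (3.7% of all genes), 2 after quantile normalization (6.38%), 1 after centring (7.1%) and 4 with 1 spread over 12 arrays (12.6%), shares that these counts do not exceed, and it was 0 with the replicate block and when any array was left out. For the difference of effects the count of 0 became 10 after quantile normalization (9.39% of all genes) and 9 after centring (8.52%), where its median was 0.37 in place of 0.11, and ranged from 0 to 6 when 1 array was left out, with medians between 0.018 and 0.36. The median of that difference over all genes was -0.19, and it was 0.04 after quantile normalization and 0.07 after centring. The count was 0 with the replicate block, and with a variance for each group. Between the control groups the count of 20 became 13 with 1 spread over 12 arrays (19.5% of all genes) and 18 with the replicate block (26.9%). When 1 array was left out it ranged from 15 to 23, with 14.2% to 45.6% of all genes. Without the cross-hybridising types it was 12 (33.2%), again out of fewer than 33 genes. Each of the 20 genes not called in that setting had only probe sets of those types past the filter. In Ra-treated cells over time the count of 0 became 2 with the replicate block (2.34% of all genes). A fit with 1 spread over 12 arrays takes in the wide Ra 48 h group by construction. Apart from the genes dropped with the cross-hybridising types, the cause of the other shifts was not tested. No difference of a named gene changed sign once it had passed the test. Leaving 1 array out leaves 2 in its group, which limma takes to vary like the other group. Of 250 gene and setting combinations for the 16 genes at 12 h, 166 kept their side of the threshold and 84 lost the call, and of 311 for the 20 genes between controls, 278 kept it and 33 lost it.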
